A study of Mus musculus with 8 samples.

Results

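The growth hormone axis of the liver was followed through 10 genes: the receptor gene Ghr, the signal transducers Stat5a and Stat5b, the feedback inhibitors Socs2 and Cish, the secreted products Igf1 and Igfals, and the major urinary protein genes Mup3, Mup20 and Mup21. They were chosen by symbol from a list drawn up with the difference between the groups known, and are 10 of the 55335 rows of the deposited table. All 10 had a mean of at least 1 FPKM (sequenced fragments divided by transcript length and by library depth) over the libraries and so belonged to the 11274 genes tested. The libraries were 8 bulk liver libraries of mice, genotype WT. Every mouse was fed CDAHFD, a high-fat diet without choline and with defined amino acids that causes steatohepatitis, and every mouse was injected in a vein with extracellular vesicles from human blood. In the 4 RIC_hEV libraries the vesicles came from volunteers after remote limb ischemic conditioning, in which blood flow to a limb is briefly interrupted. In the 4 ctr_hEV libraries they came from volunteers after sham treatment, so the controls also carried human vesicles and the same diet. Strain, sex, age, vesicle dose and time after injection were not stated in the sources used here. Nor do the labels say that each library came from its own mouse, so the errors below measure the spread between these libraries, which may be technical.

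Growth hormone binds its receptor on hepatocytes and activates the kinase JAK2, which phosphorylates STAT5 proteins. STAT5 dimers then enter the nucleus and bind DNA at a palindrome written TTCNNNGAA. In liver this pathway drives Igf1 and Igfals, feeds back through Socs2 and Cish, and, in male mice with their pulsed hormone release, sustains the major urinary proteins, small lipocalins that are made by hepatocytes and carry pheromones into urine.

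Hepatocyte markers summed to between 25700 and 38366 FPKM in every library, with the lowest sum in ctr_hEV 1 and the highest in ctr_hEV 4. Transcripts of 4 Y-linked genes were present in all 8 libraries, and Xist, the RNA of the silenced X chromosome, stayed at or below 0.0173 FPKM. The number of fragments, estimated from the value of 1 fragment in low genes, was 23700000 to 28800000 in ctr_hEV and 19300000 to 28500000 in RIC_hEV. The control libraries did not form one group on the leading principal component (44.4% of variance), where ctr_hEV 1 lay at -36.1 and ctr_hEV 3 at -23.3 while the RIC_hEV libraries lay between 4.75 and 16.3. Summed markers of steatohepatitis macrophages were 1139 FPKM in ctr_hEV 1 and 839 in ctr_hEV 3 against 346 to 582 in the other 6 libraries. Stellate cell and fibroblast markers (237 and 176 FPKM against 102 to 131) and bile duct markers (21.5 and 13.6 FPKM against 5.03 to 6.56) were also highest in those 2 libraries. None of these marker lists had a gene at 0 in all libraries. In bulk tissue, fewer hepatocytes and less RNA per hepatocyte cannot be told apart, and the main differences below are therefore also given without ctr_hEV 1 and 3. The summed markers of B and plasma cells followed the groups instead, at 13.7 to 25.0 FPKM in ctr_hEV and 41.7 to 53.6 in RIC_hEV. Of these 5 markers, 3 averaged under 1 FPKM, and 0 of the 2 tested passed the test over all genes used below. Their part in the results below was not tested.

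The Mup genes lie in a cluster of similar copies on chromosome 4, some of them near-identical, and a stretch of coding sequence shows why their values need care. The lines below give bases 61 to 120 of the coding sequence of Mup20 and the aligned bases of other copies (GENCODE M21, mm10, minus strand, read 5′ to 3′). Capitals mark bases that differ from Mup20.
Mup20: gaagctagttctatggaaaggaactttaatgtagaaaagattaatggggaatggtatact
Mup-ps19: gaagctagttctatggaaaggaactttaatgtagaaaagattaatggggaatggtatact
Mup7: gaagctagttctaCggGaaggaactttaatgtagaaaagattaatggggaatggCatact
Mup11: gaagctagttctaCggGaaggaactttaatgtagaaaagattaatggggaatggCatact
Mup3: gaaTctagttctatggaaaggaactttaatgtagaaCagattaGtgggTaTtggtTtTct
Mup21: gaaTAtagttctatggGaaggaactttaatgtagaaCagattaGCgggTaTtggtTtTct
Mup-ps19, annotated as an unprocessed pseudogene, is 519 bases long, of which 516 were identical to Mup20. Its identity of 95.0% over the 543 aligned coding columns counts missing bases as differences. In the 60 bases shown it had 0 differences from Mup20. Mup7 and Mup11 differed at 3 bases each, Mup3 at 7 and Mup21 at 10. Over the whole aligned sequence, identity to Mup20 was 91.3% for Mup11, 90.1% for Mup7, 87.5% for Mup21 and 86.6% for Mup3. When transcripts were divided into all stretches of 31 bases, 64.5% of those of Mup20 also occurred in another gene, against 30.1% for Mup3 and 33.8% for Mup21. Other Mup genes shared a median of 89.2% of their stretches, so 31 bases from them often have no single origin. Longer stretches were not examined.

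Promoter windows from RefSeq (GRCm38.p6, 250 bases before to 50 after an annotated start) were found for 8 of the 10 genes, in 13 windows. They were searched for TTCNNNGAA, which reads the same on either strand, so a single search covers both strands. Cish and Igfals held it, the other 6 genes with a window did not, and 8.30% of all 32851 windows in the table hold it at least once. Mup20 and Socs2 had no window. Cish and Igfals are shown because they varied together with Socs2 and Ghr, but Ghr did not hold the motif and Socs2 could not be searched. A relation between the motif and joint variation was not tested. The windows with the motif nearest the start are given, with the motifs in capitals.
Cish, chr9:107296409-107296708, plus strand: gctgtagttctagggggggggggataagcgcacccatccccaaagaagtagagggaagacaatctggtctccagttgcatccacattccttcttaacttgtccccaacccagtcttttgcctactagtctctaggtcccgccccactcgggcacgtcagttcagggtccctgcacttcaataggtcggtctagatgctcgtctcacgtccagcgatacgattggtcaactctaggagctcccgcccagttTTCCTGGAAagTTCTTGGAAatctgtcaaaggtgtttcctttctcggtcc
Igfals, chr17:24877981-24878280, plus strand: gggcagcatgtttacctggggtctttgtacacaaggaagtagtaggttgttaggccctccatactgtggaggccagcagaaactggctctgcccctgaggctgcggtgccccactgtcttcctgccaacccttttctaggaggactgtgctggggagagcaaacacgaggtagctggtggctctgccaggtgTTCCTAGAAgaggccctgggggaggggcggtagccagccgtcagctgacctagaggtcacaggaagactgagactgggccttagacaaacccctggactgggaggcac
Cish carried 2 copies, TTCCTGGAA from base 251 and TTCTTGGAA from base 262 of the window, that is, just after the annotated start. A window with 2 or more copies was found in 0.457% of all windows. Igfals carried TTCCTAGAA from base 193 here and TTCTCAGAA from base 15 of another window further upstream. These matches describe the letters of the windows and say nothing of binding in these livers.

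By level per unit of length, the genes spanned several orders of magnitude, with median FPKM over the 8 libraries of 1862 for Mup20, 148 for Mup3, 36.7 for Igf1, 18.4 for Ghr, 9.97 for Stat5b and 5.60 for Igfals. Mup21, Stat5a, Socs2 and Cish followed at 3.08, 2.43, 2.40 and 2.17. In RIC_hEV the libraries of neighbours in this order did not overlap from Mup20 down to Igfals. Mup21 overlapped Igfals there but lay above Stat5a, and Stat5a, Socs2 and Cish overlapped one another. In ctr_hEV the range of Mup3 overlapped that of Igf1. Igfals overlapped neither Stat5b above it nor Mup21 below it, and the ranges of Mup21, Stat5a, Socs2 and Cish overlapped. The gene lengths behind the deposited FPKM were not stated in the sources used here, so this order holds only as far as those lengths do.

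**Figure D1:**
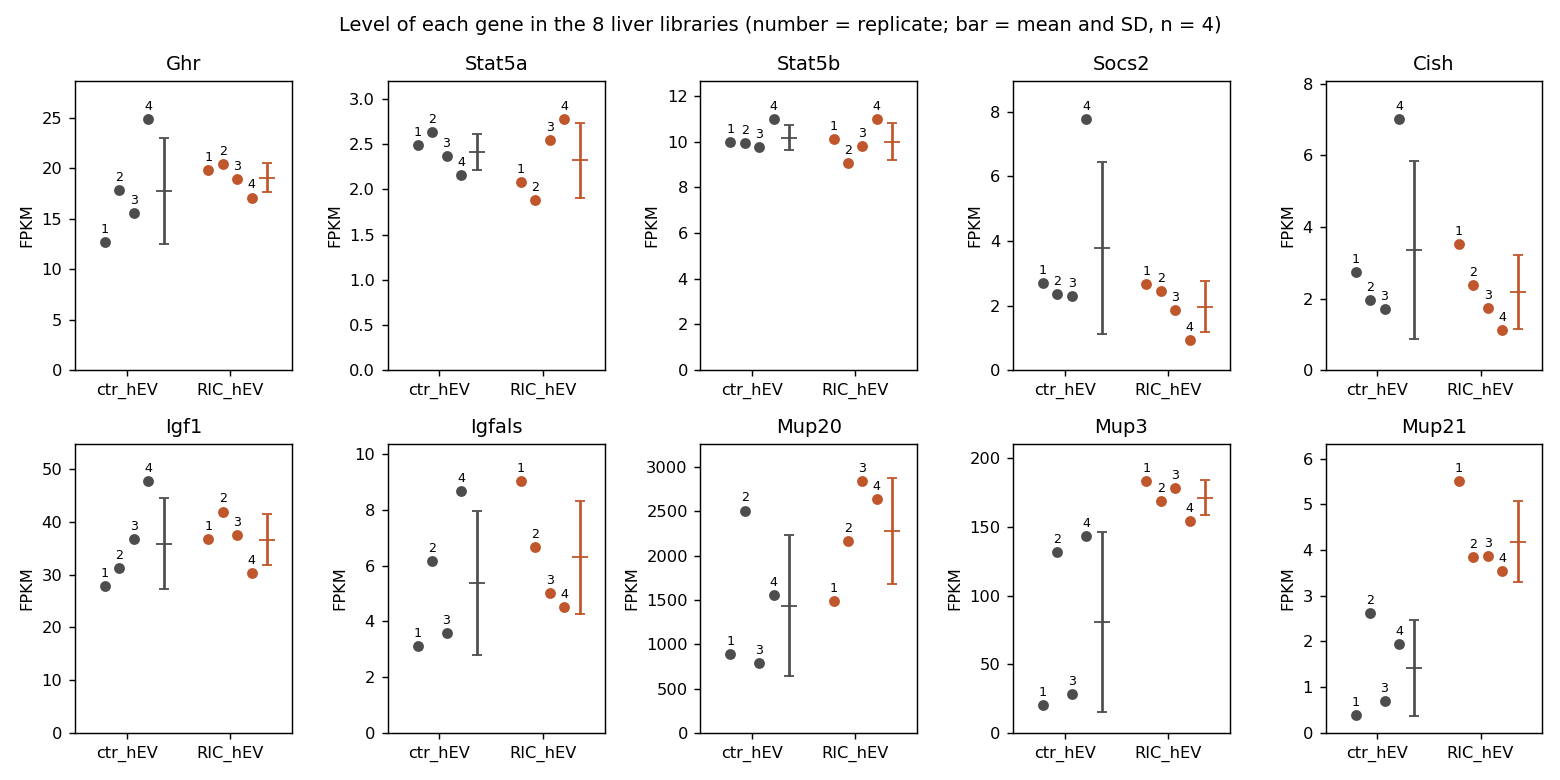
FPKM of each of the 10 genes (vertical axes, each from 0 and with its own scale) in the ctr_hEV and RIC_hEV libraries; points are libraries numbered by replicate, and bars give the mean and SD of 4 libraries. Mup3 and Mup21 are the genes whose groups do not overlap, and the single high control point of Socs2 and Cish is ctr_hEV 4.

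Differences between the groups are given as RIC_hEV minus ctr_hEV of log2(FPKM + 1), relative to the median tested gene, which lay at -0.11 as fitted. Adding 1 shrinks differences of genes with few FPKM, such as Mup21 and Cish. Relative to that median, 8 of the 10 genes were higher in RIC_hEV and 2, Socs2 and Cish, were lower. Their median was 0.20, against 0.00 over all tested genes by construction. None of the 10 was among the 4 genes that passed limma's test over all genes (0.0355% of those tested, Benjamini-Hochberg adjusted). The groups did not overlap for 2 of the 10, Mup3 and Mup21, both higher in RIC_hEV. Among all tested genes, 1.31% were separated in that direction and 4.56% in the other. Because the genes were chosen with this contrast known, these counts describe them and test nothing. Without ctr_hEV 1 and 3, 3 of the 10 were relatively higher and 7 lower, with a median of -0.05.

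**Figure D2:**
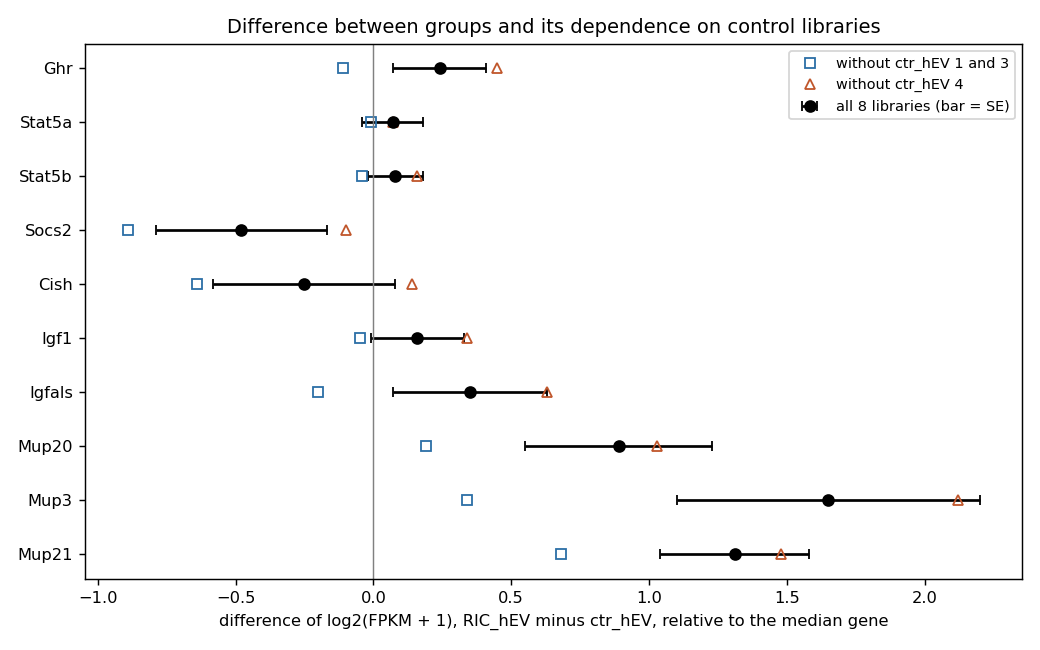
Difference of log2(FPKM + 1) between the groups (horizontal axis, RIC_hEV minus ctr_hEV, relative to the median gene) for each gene; filled points use all 8 libraries with bars of 1 SE, squares leave out ctr_hEV 1 and 3, and triangles leave out ctr_hEV 4. The Mup genes lie to the right under each choice, at 0.19 to 0.68 without ctr_hEV 1 and 3, while the signs of Ghr, Stat5a, Stat5b, Igf1, Igfals and Cish depend on which control libraries are used.

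Ghr encodes the growth hormone receptor and lies on chromosome 15 (mm10, chr15:3317760-3583492, minus strand). Its level was 12.7, 17.8, 15.6 and 24.9 FPKM in ctr_hEV 1 to 4 and 19.8, 20.4, 18.9 and 17.1 FPKM in RIC_hEV 1 to 4. The lowest and the highest value were both controls, and all RIC_hEV values lay between them. Group means were 17.8 ± 5.21 and 19.0 ± 1.45 FPKM (SD, n = 4 each). The relative difference of 0.24 (SE 0.17) became -0.11 without ctr_hEV 1 and 3 and 0.45 without ctr_hEV 4.

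Stat5a and Stat5b, the transducers, are neighbours on chromosome 11 (chr11:100859351-100885169, plus strand, and chr11:100780731-100850724, minus strand) and were the steadiest genes of the axis. Stat5b, the form on which male growth hormone responses in liver mainly rest, had 10.01, 9.94, 9.77 and 11.04 FPKM in ctr_hEV 1 to 4 and 10.12, 9.07, 9.81 and 10.98 FPKM in RIC_hEV 1 to 4. Its highest library was 1.22 times its lowest, and the groups overlapped throughout. Stat5a had 2.49, 2.63, 2.37 and 2.16 FPKM in ctr_hEV 1 to 4 and 2.08, 1.88, 2.54 and 2.78 FPKM in RIC_hEV 1 to 4. For Stat5a the lowest and the highest value were both RIC_hEV libraries. Relative differences were 0.08 (SE 0.10) for Stat5b and 0.07 (SE 0.11) for Stat5a, both smaller than their error, and -0.04 and -0.01 without ctr_hEV 1 and 3. About 15.2% of the 31-base stretches of Stat5b and 12.3% of those of Stat5a occur in another gene, mostly in each other.

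Socs2 and Cish encode members of the suppressor of cytokine signalling family, which STAT5 induces and which damp the receptor in return. Socs2 (chr10:95385362-95417180, minus strand) had 2.69, 2.36, 2.29 and 7.78 FPKM in ctr_hEV 1 to 4 and 2.66, 2.44, 1.86 and 0.921 FPKM in RIC_hEV 1 to 4. One control library, ctr_hEV 4, stood far above the other 7, and RIC_hEV 4 stood lowest. Cish (chr9:107296026-107302784, plus strand) showed the same extremes, with 2.73, 1.95, 1.70 and 7.02 FPKM in ctr_hEV 1 to 4 and 3.52, 2.39, 1.73 and 1.11 FPKM in RIC_hEV 1 to 4. Group means of Socs2 were 3.78 ± 2.67 and 1.97 ± 0.776 FPKM, and those of Cish 3.35 ± 2.48 and 2.19 ± 1.03 FPKM (SD, n = 4 each). Socs2 had a relative difference of -0.48 (SE 0.31) with all libraries, -0.89 without ctr_hEV 1 and 3, and -0.10 without ctr_hEV 4. For Cish the relative difference of -0.25 (SE 0.33) was -0.64 without ctr_hEV 1 and 3 and turned to 0.14 without ctr_hEV 4. The other extreme library also mattered: without RIC_hEV 4 the values were -0.27 for Socs2 and -0.05 for Cish. The hepatocyte marker sum was also highest in ctr_hEV 4, and its part in the result was not tested.

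Igf1 and Igfals are the secreted output of the axis: insulin-like growth factor 1, and the acid-labile subunit that holds it in a long-lived complex in blood. Igf1 (chr10:87858265-87937042, plus strand) had 27.9, 31.3, 36.7 and 47.7 FPKM in ctr_hEV 1 to 4 and 36.8, 42.0, 37.5 and 30.3 FPKM in RIC_hEV 1 to 4. Its means, 35.9 ± 8.65 and 36.7 ± 4.81 FPKM (SD, n = 4 each), differed by much less than the spread within either group. Igfals (chr17:24865997-24882010, plus strand) had 3.10, 6.17, 3.57 and 8.69 FPKM in ctr_hEV 1 to 4 and 9.02, 6.66, 5.02 and 4.52 FPKM in RIC_hEV 1 to 4. The 2 lowest Igfals values were ctr_hEV 1 and 3, but ctr_hEV 4 was second only to RIC_hEV 1. Relative differences were 0.16 (SE 0.17) for Igf1 and 0.35 (SE 0.28) for Igfals, and without ctr_hEV 1 and 3 they were -0.05 and -0.20.

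Mup20 encodes darcin, a male urinary protein that females recognise as a scent, and it was the most abundant gene of the set. Its row (chr4:62050234-62054158, minus strand) held 885, 2510, 793 and 1560 FPKM in ctr_hEV 1 to 4 and 1490, 2164, 2838 and 2640 FPKM in RIC_hEV 1 to 4. The 2 low libraries were ctr_hEV 1 and 3, while ctr_hEV 2 reached the level of the RIC_hEV libraries and ctr_hEV 4 exceeded RIC_hEV 1. Group means were 1437 ± 793 and 2283 ± 599 FPKM (SD, n = 4 each), a ratio of 1.59. The relative difference of 0.89 (SE 0.34) was 0.19 without ctr_hEV 1 and 3.

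Mup3 (chr4:62083476-62087342, minus strand), another urinary lipocalin of the cluster, had 20.6, 132, 28.5 and 143 FPKM in ctr_hEV 1 to 4 and 183, 169, 178 and 154 FPKM in RIC_hEV 1 to 4. The controls fell into a low pair and a high pair, and the high pair lay close to the lowest RIC_hEV library without reaching it. Control values therefore had a coefficient of variation of 80.8% and RIC_hEV values one of 7.53%. Means were 81.1 ± 65.5 and 171 ± 12.9 FPKM (SD, n = 4 each), a ratio of 2.11. The relative difference of 1.65 (SE 0.55) was 0.34 without ctr_hEV 1 and 3, so most of it came from that low pair.

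Mup21 (chr4:62147932-62150863, minus strand), the most divergent of the 3 by the coding stretch shown above, had 0.401, 2.62, 0.690 and 1.95 FPKM in ctr_hEV 1 to 4 and 5.50, 3.84, 3.86 and 3.54 FPKM in RIC_hEV 1 to 4. Every RIC_hEV library lay above every control, and ctr_hEV 1 and 3 were again the lowest. Means were 1.42 ± 1.05 and 4.19 ± 0.891 FPKM (SD, n = 4 each), a ratio of 2.96. These levels are low, resting by a rough estimate on 7.50 fragments in ctr_hEV 1 and 94.9 in RIC_hEV 1. The relative difference was 1.31 (SE 0.27), and 0.68 without ctr_hEV 1 and 3.

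In ctr_hEV 1 and 3, where the 3 Mup genes were lowest, the summed markers of macrophages, stellate cells and bile ducts were highest, and the hepatocyte sum was 25700 and 32173 FPKM against 29902 to 38366 in the other 6 libraries. The part of cell composition in the Mup values was not tested.

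Of 48 rows of the Mup family, 21 were genes and 27 pseudogenes. A total of 21 pseudogene rows were at 0 in every library, and 14 of the 18 other Mup genes stayed below 1 FPKM in every library. The family sum took 0.233%, 0.947%, 0.206% and 0.587% of all FPKM in ctr_hEV 1 to 4 and 0.404%, 0.795%, 1.02% and 0.997% in RIC_hEV 1 to 4. Nearly all of it stood on Mup20, Mup3 and the pseudogene Mup-ps19 (chr4:61957149-61959911, minus strand). Mup-ps19 was listed at 0 in ctr_hEV 1, ctr_hEV 3 and RIC_hEV 1, and at 1222, 760, 1067, 1355 and 1271 FPKM in ctr_hEV 2, ctr_hEV 4 and RIC_hEV 2, 3 and 4. Where it was above 0, it was always 0.478 to 0.493 times Mup20, whichever the group. Of its 31-base stretches, 94.1% also occur in Mup20, while 51.2% of those of Mup20 occur in Mup-ps19. The part of this overlap in the 3 values of 0 was not tested. Adding the pseudogene to Mup20 by length gave a relative difference of 0.98 in place of 0.89.

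**Figure D3:**
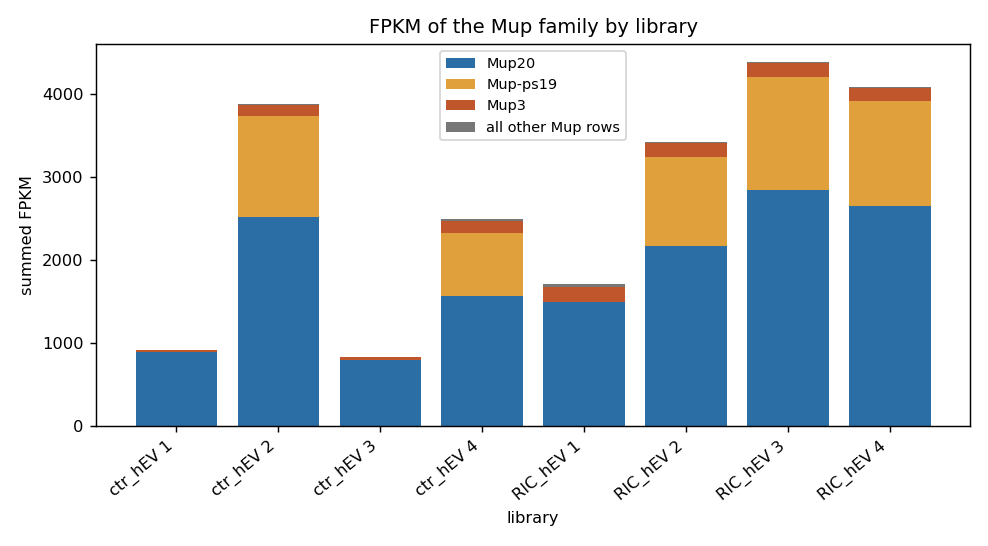
Summed FPKM of the Mup family (vertical axis, from 0) in each library, divided into Mup20, the pseudogene Mup-ps19, Mup3 and all other Mup rows. The sums of ctr_hEV 1 and 3 are the lowest, at 906 and 823 FPKM, and the pseudogene segment is missing in ctr_hEV 1, ctr_hEV 3 and RIC_hEV 1.

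The other Mup genes above the filter each stood on few libraries. Mup7 was at 19.8 FPKM in RIC_hEV 1 and between 0 and 0.793 in the other 7 libraries. Its groups did not overlap, with the highest control at 0.352 FPKM and the lowest RIC_hEV library at 0.454. That held for 1 of these 3 genes, against 1.31% of all genes tested that were higher in this way. Mup10 was at 13.5 FPKM in ctr_hEV 4 and at 0 elsewhere. Mup11 was at 5.97 FPKM in ctr_hEV 4, 8.50 in RIC_hEV 2 and 4.90 in RIC_hEV 4, and at most 0.129 in the other 5. With 83.2% to 90.0% of their 31-base stretches held by other genes, the assignment of reads to these 3 genes is uncertain. None of the 3 passed limma's test (lowest adjusted p = 0.390), and 0 had an unadjusted p under 0.05.

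**Figure D4:**
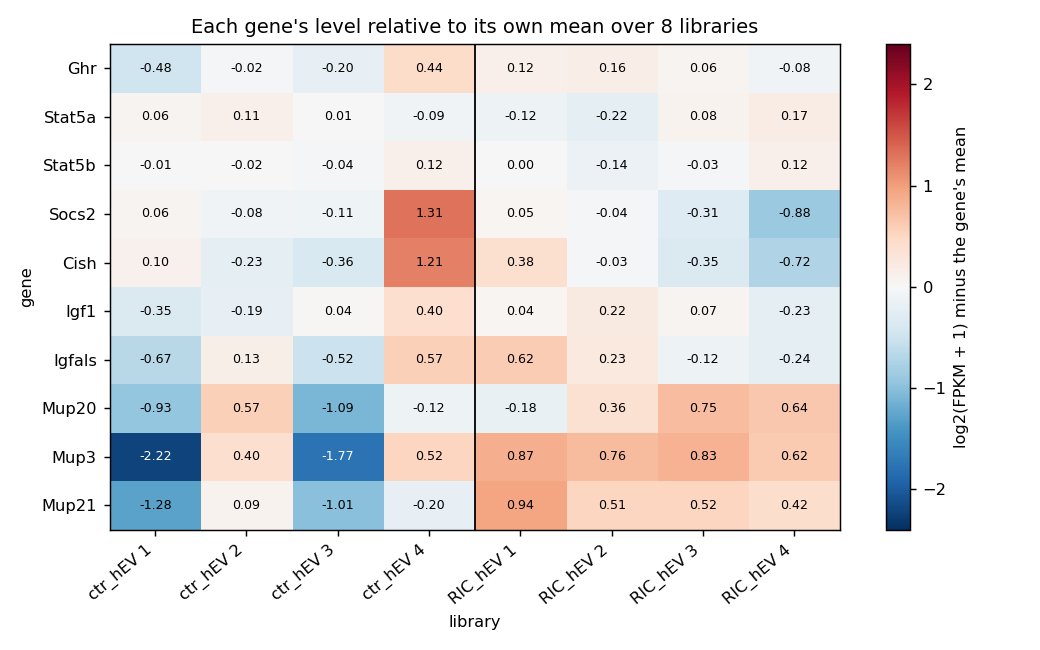
Level of each gene in each library as log2(FPKM + 1) minus the gene's own mean over 8 libraries (colour and printed value; rows are genes, columns libraries, and the black line divides ctr_hEV from RIC_hEV). The Mup rows are lowest in ctr_hEV 1 and 3, reaching -2.22 for Mup3, and the Socs2 and Cish rows are highest in ctr_hEV 4, at 1.31 and 1.21.

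Pairs of these genes differed in how closely they varied together across the libraries. With 8 libraries, a pair that did not pass may still vary together. Of 45 pairs of the 10 genes, 31 had a positive Pearson correlation of log2(FPKM + 1) over the 8 libraries, and 3 had a two-sided exact permutation p under 0.05 after Benjamini-Hochberg adjustment over the 45 pairs. All values of a library share its depth and its cell composition. Socs2 and Cish had r = 0.95 (exact permutation p = 0.000174, adjusted 0.00614) and Spearman's rho = 0.95 (exact permutation p = 0.00114, adjusted 0.0257). Their r was 0.79 without the 2 extreme libraries ctr_hEV 4 and RIC_hEV 4, and 0.97 after each group was centred on its own mean. The feedback pair thus moved together within groups as well as over all 8 libraries. For Mup3 and Mup21, r was 0.94 (exact permutation p = 0.000273, adjusted 0.00614) and rho 0.98 (exact permutation p = 0.000397, adjusted 0.0179), with r = 0.85 without ctr_hEV 1 and 3. Of the 31-base stretches of Mup21, 28.6% occur in Mup3, and Mup21 had 1.36% to 3.01% of the FPKM of Mup3; the part of shared reads in this correlation was not tested. Ghr and Igfals had r = 0.89 (exact permutation p = 0.00176, adjusted 0.0264) and rho = 0.90 (exact permutation p = 0.00456, adjusted 0.0513), with r = 0.83 without ctr_hEV 1 and 4. Mup3 and Mup20, by contrast, had r = 0.86 (exact permutation p = 0.0237, adjusted 0.146; rho = 0.50, exact permutation p = 0.216, adjusted 0.463), which fell to -0.11 without ctr_hEV 1 and 3, so that relation rested on those 2 libraries. Mup3 and Socs2 had r = -0.02 (exact permutation p = 0.941, adjusted 0.957; rho = -0.19, exact permutation p = 0.665, adjusted 0.831).

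The genes whose centred profile was nearest to that of a Mup gene were picked from 10084 candidates by the root mean square difference over the 8 libraries, on the log2(FPKM + 1) scale. Nearest to Mup3 was the carboxylesterase gene Ces3b, at 0.32, with 2.32, 15.5, 3.82 and 31.0 FPKM in ctr_hEV 1 to 4 and 16.6 to 23.4 FPKM in RIC_hEV. It was followed by Eif4ebp3, a repressor of translation (0.32), the fatty acid hydroxylase Cyp4a12b (0.41), Rgs16 (0.43) and Cyp2c54 (0.43). Each of these 5 genes had its 2 lowest values in ctr_hEV 1 and 3, which picking by closeness to Mup3 favours. For Mup21 the nearest were Ces3a (0.22), the ethanol-metabolising Cyp2e1 (0.27), Serpina3k (0.28), Cyp2d40 (0.34) and the chaperone gene Hspa1b (0.34). Mup20 was nearest to the chaperone gene Hspa1a (0.24), then Rdh18-ps (0.28), Hopx (0.31), Csrp3 (0.33) and Cyp4a10 (0.33). Several of these genes have close copies: 34.9% of the 31-base stretches of Ces3a occur in Ces3b, 63.8% of those of Hspa1a in Hspa1b, and 75.7% of those of Rdh18-ps in other genes.

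Of the wider receptor pathway (kinases, phosphatases, adaptors, other suppressors and the repressors and activators that act with STAT5), 24 of 27 listed genes were tested. All gene lists were chosen with earlier results of these data known, so the counts of this list and those below are a description. None passed limma's test (lowest adjusted p = 0.332), 6 of 24 had an unadjusted p under 0.05 (14.0% of all genes tested), and 8 were relatively higher and 16 lower in RIC_hEV, with a median of -0.12. Without ctr_hEV 1 and 3, 9 were higher and 15 lower, with a median of -0.09. The groups did not overlap for 4 of 24 genes, all lower, against 4.56% of all genes tested in that direction. Trim24, a nuclear coregulator, was one of them, with 4.44, 5.87, 4.58 and 4.11 FPKM in ctr_hEV 1 to 4 and 2.74 to 3.48 FPKM in RIC_hEV. Its relative difference was -0.34 (SE 0.12; adjusted p = 0.332 in limma), and -0.47 without ctr_hEV 1 and 3. Jak2, the receptor's own kinase, was picked here after its values were seen. It had 4.60, 4.57, 4.06 and 3.12 FPKM in ctr_hEV 1 to 4 and 2.90, 2.70, 2.83 and 2.66 FPKM in RIC_hEV 1 to 4. Every RIC_hEV library lay below every control, with a relative difference of -0.31 (SE 0.12; adjusted p = 0.332 in limma), and of -0.32 without ctr_hEV 1 and 3.

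Onecut1, a hepatocyte transcription factor, had 11.2 FPKM in ctr_hEV 4 and 1.46 to 4.03 FPKM in the other 7 libraries. Its relative difference of -0.49 (SE 0.40) was lower still without ctr_hEV 1 and 3 and was 0.00 without ctr_hEV 4, the library in which Socs2 and Cish were also highest. Bcl6, a repressor that competes with STAT5 for sites, had 1.18 FPKM in ctr_hEV 4 and 2.60 to 3.95 in the other controls, against 1.09 to 1.36 in RIC_hEV 1 to 3 and 3.03 in RIC_hEV 4. Bcl6 was thus low in 4 libraries of both groups and high in the other 4. The phosphatases Ptpn6 and Ptpn11 and the insulin receptor substrate Irs2 were the most abundant of the list. Ptpn6 averaged 14.9 ± 2.80 and 13.3 ± 1.36 FPKM, and Ptpn11 13.0 ± 1.79 and 10.8 ± 1.30 FPKM (SD, n = 4 each, ctr_hEV first). Irs2 reached 25.0 FPKM in ctr_hEV 4 and lay between 4.44 and 14.8 in the other libraries.

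**Figure D5:**
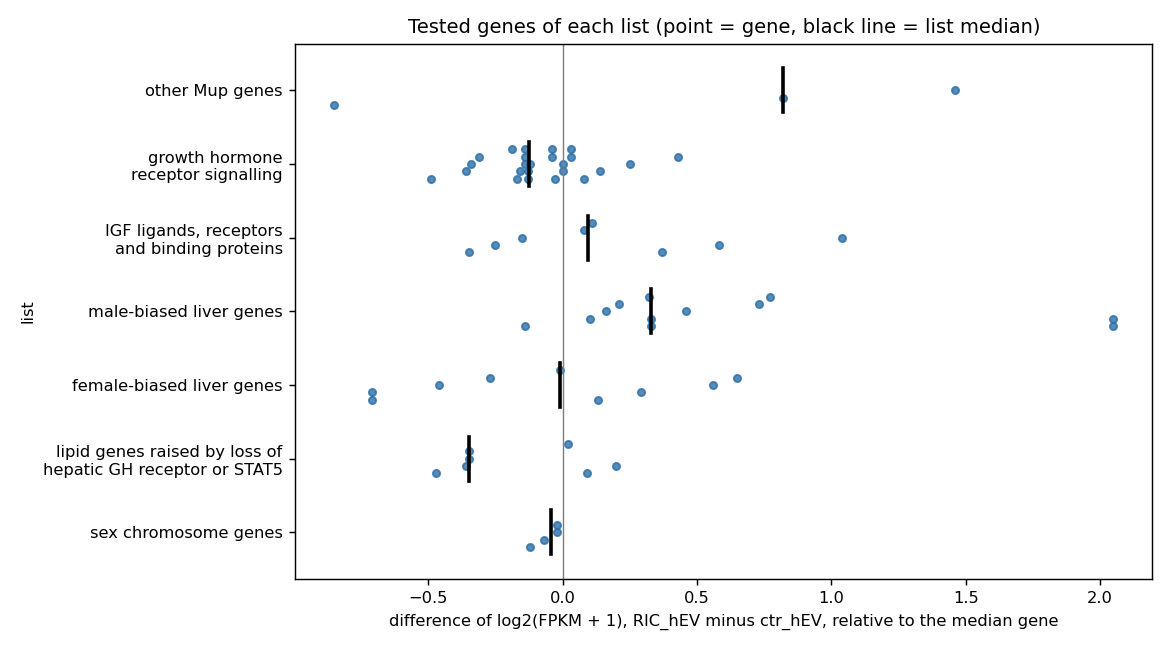
Difference of log2(FPKM + 1) between the groups (horizontal axis, RIC_hEV minus ctr_hEV, relative to the median gene) for the tested genes of each list; points are genes and black lines list medians. The male-biased list has its median at 0.33 with 11 of 12 genes above 0, and the lists of receptor signalling and of lipid genes have medians of -0.12 and -0.35.

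Of the genes around insulin-like growth factor, 8 of 16 were tested, with 5 relatively higher and 3 lower and a median of 0.09. Without ctr_hEV 1 and 3, 6 of 7 were higher and the median was 0.23. None passed in limma (lowest adjusted p = 0.332), and 2 of 8 had an unadjusted p under 0.05, against 14.0% of all genes tested. Igfbp2, a binding protein secreted by hepatocytes, was the 1 gene of 8 whose groups did not overlap (1.31% of all genes tested were higher in this way), at 531, 583, 529 and 552 FPKM in ctr_hEV 1 to 4 and 863, 688, 694 and 803 FPKM in RIC_hEV 1 to 4. Its relative difference of 0.58 (SE 0.11; adjusted p = 0.332 in limma) was 0.45 without ctr_hEV 1 and 3. Igfbp1, a binding protein repressed by insulin, was more scattered, with 127 to 854 FPKM in ctr_hEV and 474 to 903 in RIC_hEV. Igfbp4 had means of 205 ± 20.5 and 246 ± 25.5 FPKM (SD, n = 4 each, ctr_hEV first). Igfbp5 lay between 0.398 and 2.63 FPKM in ctr_hEV and between 0.541 and 0.902 in RIC_hEV.

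Male-biased liver genes, many of which depend on pulsed growth hormone and STAT5b, were relatively higher in RIC_hEV for 11 of 12 tested of 19 listed, with a median of 0.33. None passed in limma (lowest adjusted p = 0.306), and 5 of 12 had an unadjusted p under 0.05, against 14.0% of all genes tested. Without ctr_hEV 1 and 3, 7 of 13 were higher and the median was 0.01. Cyp4a12a, a fatty acid hydroxylase of male liver, had 1.85, 5.54, 1.10 and 5.90 FPKM in ctr_hEV 1 to 4 and 13.4, 8.53, 20.7 and 18.3 FPKM in RIC_hEV 1 to 4. Its groups did not overlap, which held for 3 of 12 genes of the list, all higher, against 1.31% of all genes tested in that direction. As with the Mup genes, its values were lowest in ctr_hEV 1 and 3. Its relative difference was 2.05 (SE 0.39; adjusted p = 0.306 in limma), and 1.23 without those 2 libraries. Cyp4a12b, of whose 31-base stretches 62.9% occur elsewhere, chiefly in Cyp4a12a, had a relative difference of 2.05 (SE 0.42), and 1.06 without those 2 libraries, so the pair cannot count as separate evidence. Cyp2d9, a steroid hydroxylase, averaged 36.5 ± 15.0 and 55.4 ± 11.0 FPKM, and Ugt2b1, a glucuronosyltransferase, 79.7 ± 17.2 and 91.2 ± 7.40 FPKM (SD, n = 4 each, ctr_hEV first). Serpina1e reached 182 FPKM in ctr_hEV 4 and 51.9 to 96.9 elsewhere, and Gstp1, at 278 ± 35.6 and 233 ± 24.2 FPKM, was the tested gene of the list that was relatively lower.

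Female-biased liver genes were divided over all 8 libraries, with 4 of 9 tested of 19 listed relatively higher and 5 lower, and a median of -0.01. Without ctr_hEV 1 and 3, 1 was higher and 8 were lower, with a median of -0.16. None passed in limma (lowest adjusted p = 0.356), and 1 of 9 had an unadjusted p under 0.05, against 14.0% of all genes tested. Several of them stood highest in ctr_hEV 4. Cyp2b13 had 14.0 FPKM there and 0.161 to 1.72 in the other 7 libraries, and Cyp2b9 had 99.4 FPKM against 10.6 to 62.7. RIC_hEV 4, where Socs2 and Cish were lowest, was also the lowest library for Cyp2b9 and Cyp2b13. Cyp2a4 was also lowest in RIC_hEV 4, at 47.8 FPKM, but was highest, at 196 FPKM, in ctr_hEV 1.

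Lipid genes that are raised when liver lacks the growth hormone receptor or STAT5 had 3 of 7 tested of 8 listed relatively higher and 4 lower, with a median of -0.35. None passed in limma (lowest adjusted p = 0.332), and 3 of 7 had an unadjusted p under 0.05, against 14.0% of all genes tested. The groups did not overlap for 2 of 7 genes, all lower, against 4.56% of all genes tested in that direction. Pparg, a nuclear receptor that promotes fat storage, had 10.1, 7.27, 9.90 and 6.08 FPKM in ctr_hEV 1 to 4 and 4.36, 4.87, 5.52 and 5.88 FPKM in RIC_hEV 1 to 4. All RIC_hEV libraries lay below all controls, with a relative difference of -0.47 (SE 0.16; adjusted p = 0.332 in limma) and of -0.29 without ctr_hEV 1 and 3. Cd36, a fatty acid transporter, averaged 122 ± 30.7 and 87.0 ± 16.8 FPKM, and the droplet protein Cidec 72.4 ± 22.0 and 69.8 ± 14.2 FPKM (SD, n = 4 each, ctr_hEV first). Lpl, the lipoprotein lipase, lay between 18.1 and 40.2 FPKM in ctr_hEV and between 16.8 and 25.2 in RIC_hEV. Without ctr_hEV 1 and 3 the list's median was -0.01. Cd36, Lpl and Pparg are also made by macrophages, whose marker sum was highest in those 2 libraries, and its part in these values was not tested.

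Of the sex chromosome genes, Ddx3y averaged 4.99 ± 1.11 and 4.09 ± 0.705 FPKM, Eif2s3y 4.64 ± 0.757 and 4.12 ± 0.369 FPKM, and Uty 1.16 ± 0.121 and 0.906 ± 0.0817 FPKM (SD, n = 4 each, ctr_hEV first). The relative differences of all 4 tested genes lay between -0.12 and -0.02, with 0 passing in limma (lowest adjusted p = 0.390) and 0 at an unadjusted p under 0.05.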

How the data were processed

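Total RNA of mouse liver was sequenced in 8 libraries. Per the submitters' processing notes, FastQC 0.11.9, Trimmomatic 0.38, HISAT2 2.2.1, HTSeq 0.13.5, R 3.4.1 and DESeq2 1.18.1 were used with build mm10. The values deposited by the authors are FPKM per gene and library; which program, gene lengths, annotation and strand setting lie behind them was not stated in the sources used here. Reads from both strands of a locus may therefore have been counted for 1 gene.

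Of 55335 rows, 3225 without a gene name (0.176% to 0.207% of FPKM) were left out, and 26 symbols turned into dates are not named. Genes with a mean of at least 1 FPKM (11274) were compared on log2(FPKM + 1) computed from the deposited FPKM, with limma 3.58.1 in R 4.3.3 (trend, two-sided, Benjamini-Hochberg, threshold 0.05), checked on simulated data. The SE belongs to the difference as fitted. Group and replicate number come from the sample titles. The 10 genes, the gene lists and the alternatives were chosen with earlier results of these data known. Of each list, the 3 genes with the highest mean, the 3 with the largest difference and any that passed are named; of the 3 members that varied most, the 5 nearest profiles are named. One gene that this rule names is not reported here. Depth was estimated from the most common step of FPKM times length among low values; about 19.2% to 20.9% of low values lay within 0.05 of a whole step, so no count model was used. Alternatives were another pseudocount (0.1), filters (none, 5 FPKM), scalings (median, quantile, TPM), no trend, a replicate block, and leaving libraries out.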

Additional observations from a re-analysis of the deposited data

Results flagged for a closer look

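For 40 named genes, the farthest library of each group of 4 was compared with the group's range of FPKM, taken without logs. A library was separated by more than Dixon's 95% critical value in 10 of 80 groups, always as the highest value. Chance gives about 1 in 20 groups only for independent, normally distributed values. These genes vary together, some were named for large differences, and Mup10 was at 0 in the other controls, so that rate does not apply. Of the 10 groups flagged, 6 were in ctr_hEV 4. Socs2 stood at 7.78 FPKM in ctr_hEV 4 against 2.29 to 2.69 in the other controls, Onecut1 at 11.2 FPKM against 2.25 to 2.87, Cyp2b13 at 14.0 FPKM against 0.501 to 1.72, and Serpina1e at 182 FPKM against 51.9 to 71.4. Mup10 stood at 13.5 FPKM in the same library against 0 in the other controls, and Mup11 at 5.97 FPKM against at most 0.129. In RIC_hEV 1, Mup21 stood at 5.50 FPKM against 3.54 to 3.86 in the rest of its group, Mup7 at 19.8 FPKM against 0.454 to 0.793, and Onecut1 at 4.03 FPKM against 1.46 to 1.87. Bcl6 stood at 3.03 FPKM in RIC_hEV 4 against 1.09 to 1.36 in the other RIC_hEV libraries.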

How the results depend on the processing

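The 4 genes passing over the whole table became 2 with no filter on low values and 1 with a filter of 5 FPKM. They became 6 with median centring and 6 with quantile normalization. Leaving out 1 library each gave 1 to 175 passing genes. The highest count came without ctr_hEV 4 (41 higher and 134 lower of 11322 tested, 29.1% of which had an unadjusted p under 0.05 in limma). The cause was not tested. None of the 10 growth hormone axis genes passed under any of these alternatives. Without ctr_hEV 4, Jak2 (-0.37, adjusted p = 0.0433 in limma) passed in the list of receptor signalling, Cyp4a12a (2.34) and Cyp4a12b (2.37; adjusted p = 0.0433 each) in the male-biased list, and Pparg (-0.55, adjusted p = 0.0434) in the lipid list, so leaving out 1 library gave 0 to 1, 0 to 2 and 0 to 1 passing genes in these lists, against 0 with all libraries. Of 166 values of the 10 genes under alternatives, 7 moved by at least 1 SD, 6 of them without ctr_hEV 1 and 3 and the other being Mup21 (1.93 with a pseudocount of 0.1). The median of the 10 genes was 0.20 with all libraries, 0.05 to 0.40 leaving out 1 library, and 0.11 to 0.26 under the other settings. The share of tested genes fitted below 0 was 73.0%, and 43.8% with median centring, 51.5% with quantile normalization and 80.2% on the TPM scale. Relative to the median gene, Stat5a ranged from -0.02 to 0.09 over the settings that keep all libraries. Libraries of the same replicate number did not deviate alike from their group means (correlations between -0.227 and 0.12, with 1 of 4 numbers matching best). With 4 numbers and widely spread controls, this cannot exclude a pairing. With the replicate number as a block, 3 genes passed (1 higher, 2 lower), none of them among the 10. Depth limits the lowest genes, with an estimated 7.50 to 94.9 fragments per library for Mup21 and, at their shortest transcripts, as few as 6.25 for Socs2 and 7.91 for Cish.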
